A study of Mus musculus with 36 samples.

Results

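The genes described here are 8 genes of bone and tooth matrix or of bone signalling that were followed in the cerebellum and hippocampus of mice with a nervous-system deletion of Pogz, a heterochromatin-associated zinc-finger gene. They are Dmp1, Dspp, Ibsp, Mepe and Spp1, which lie together on chromosome 5, and Amelx, Ostn and Fbln7, which lie elsewhere. These 8 of the 24421 listed genes were chosen by their place in mineralised tissue and, for several of them, by their change across Pogz genotypes in these same libraries. Their changes with alleles lost are therefore given as values, without p-values and not as evidence. The p-values given below for the departure of cKO+/- from the midpoint are a description too. RNA was sequenced from both tissues of 18 adult C57Bl/6 mice, 6 of each genotype and 3 males and 3 females within each. Control mice were Pogz fl/fl without Cre and so had 2 intact alleles. Pogz cKO+/- mice had 1 intact allele and Pogz cKO-/- mice had 0, through NesCre, a Cre driven by the Nestin promoter in neural progenitors and their descendants. In comparisons with the controls, which carried no Cre, the deletion and the presence of Cre cannot be told apart, while both mutant groups carried NesCre. The Nestin promoter is not used by most cells of non-neural origin, such as microglia.

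Mineralised tissues are built on a collagen or enamel-protein scaffold to which acidic, phosphorylated proteins bind calcium. Dmp1, Dspp, Ibsp, Mepe and Spp1 encode the SIBLING proteins of bone and dentin, which arose by tandem duplication and carry RGD motifs through which cells attach. In bone, Dmp1 acts with the protease Phex to restrain Fgf23, the hormone of phosphate loss. Spp1, osteopontin, is also made outside bone, in microglia and in some hindbrain neurons. Amelx encodes amelogenin, the main protein of forming enamel, Ostn encodes osteocrin, a secreted peptide that binds the natriuretic peptide clearance receptor, and Fbln7 encodes a fibulin of the extracellular matrix first studied in teeth.

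The libraries held 21421850 to 32544929 counts per cerebellum and 17609321 to 45544188 per hippocampus. Levels are given as CPM, counts scaled to a common library size with TMM factors, with the SD over libraries. Pogz itself was 99.5 ± 15.2 CPM in control, 77.6 ± 5.77 in cKO+/- and 65.7 ± 7.33 in cKO-/- cerebellum (n = 6 each), and 90.8 ± 1.24 (n = 6), 76.3 ± 2.26 (n = 6) and 61.6 ± 3.55 (n = 5) in hippocampus. Counts per gene did not separate the floxed exons from the rest. One hippocampus, that of the cKO-/- animal Sample_1160, did not enter the tests, as in the fit the study appears to have used. The hippocampal control library of Sample_1129 stood apart, with 359 CPM summed over 5 cerebellar markers against 130 to 188 in the other 17. The controls were numbered from Sample_1129 to Sample_1192. A wider run, Sample_1120 to Sample_1219, was set after seeing the data and held 3 of the 6 cKO+/- and 2 of the 6 cKO-/- animals. Values within that wider run are given beside the main results. Bulk RNA cannot tell more cells of a type from more RNA per cell.

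Promoters are shown for the members with a RefSeq entry (build GRCm38.p6) whose level changed with genotype, with Spp1 as a further member from the group on chromosome 5. Each runs from 250 bases before to 50 bases after the start site on the gene's own strand, and capitals mark matches to the motifs searched. Dmp1 is at chr5:104202367-104202666 (+), Spp1 at chr5:104434861-104435160 (+), Amelx at chrX:169187160-169187459 (-) and Fbln7 at chr2:128863682-128863981 (+).
Dmp1: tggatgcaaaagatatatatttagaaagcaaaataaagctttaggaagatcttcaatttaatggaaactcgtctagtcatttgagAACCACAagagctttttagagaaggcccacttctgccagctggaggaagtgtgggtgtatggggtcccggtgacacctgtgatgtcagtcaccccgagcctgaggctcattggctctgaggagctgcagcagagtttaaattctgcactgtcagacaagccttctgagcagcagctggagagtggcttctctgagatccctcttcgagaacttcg
Spp1: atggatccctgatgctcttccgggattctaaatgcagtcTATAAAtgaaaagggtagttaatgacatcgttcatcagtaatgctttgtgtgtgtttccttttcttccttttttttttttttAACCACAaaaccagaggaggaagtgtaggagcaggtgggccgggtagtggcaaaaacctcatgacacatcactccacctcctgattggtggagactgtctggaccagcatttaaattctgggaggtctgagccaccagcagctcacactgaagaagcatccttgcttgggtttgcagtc
Amelx: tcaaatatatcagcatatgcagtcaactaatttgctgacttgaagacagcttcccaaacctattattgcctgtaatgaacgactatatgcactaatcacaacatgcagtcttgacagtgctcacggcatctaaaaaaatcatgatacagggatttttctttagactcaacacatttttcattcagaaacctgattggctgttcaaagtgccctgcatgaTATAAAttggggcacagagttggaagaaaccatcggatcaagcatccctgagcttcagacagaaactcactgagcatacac
Fbln7: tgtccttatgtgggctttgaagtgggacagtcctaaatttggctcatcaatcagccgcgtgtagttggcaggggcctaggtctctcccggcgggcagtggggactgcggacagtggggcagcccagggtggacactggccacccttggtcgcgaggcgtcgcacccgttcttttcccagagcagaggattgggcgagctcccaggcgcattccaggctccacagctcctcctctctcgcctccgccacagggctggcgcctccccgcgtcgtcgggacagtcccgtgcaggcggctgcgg
The 6 motifs searched on both strands were the TATA box (TATAAA), the E-box (CACGTG), the AP-1 site (TGACTCA), the cAMP response element (TGACGTCA), the Runx site (AACCACA) and the homeobox core (TAATTA), none of which is contained in another. The Runx site began at -165 in Dmp1 and at -129 in Spp1, and 5.27% of all 32817 promoters held it. The promoters of Ibsp and Mepe, of the same group on chromosome 5, held no Runx site and are not shown. TATAAA began at -31 in Amelx, where TATA boxes commonly stand, and at -211 in Spp1, with a share of 13.6% among all promoters. The Fbln7 promoter matched none of the 6. It was 66.0% G or C with 22 CG pairs, while the Amelx promoter was 40% with 3, Dmp1 47.3% with 5 and Spp1 45.3% with 3, against medians of 52.7% and 7 over all promoters. The promoters of Dmp1, Amelx and Fbln7 held no searched motif in common. The share of all promoters holding the others was 7.15% for the E-box, 5.21% for the AP-1 site, 1.79% for the cAMP response element and 5.30% for the homeobox core. Promoters of Ostn and Dspp were not analysed here.

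In the cerebellum, transcripts of 4 members were higher with Pogz alleles lost, although Amelx did not separate cKO+/- from control libraries. Of the 8, 5 passed the filter of more than 1 CPM in at least 6 libraries (Dmp1, Spp1, Amelx, Ostn and Fbln7). Dmp1, Amelx, Ostn and Fbln7 passed a false discovery rate of 5% in edgeR's quasi-likelihood test, all higher with alleles lost and none lower. Over all 14027 genes tested, 7.11% were called higher and 6.55% lower. The members were selected on this contrast. Amelx and Ostn passed the filter only through mutant libraries, in which they were high, so the 4 of 5 is a description.

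Dmp1, the dentin matrix protein, was measured in control cerebellum at 14.7 CPM in the lowest library, 16.4 at the median and 17.5 in the highest. In cKO+/- the lowest, median and highest were 19.9, 24.7 and 25.4, and in cKO-/- 45.8, 53.0 and 62.8. All cKO-/- libraries lay above all cKO+/- libraries, and these above all controls. The means were 16.2 ± 1.03, 23.7 ± 2.19 and 53.2 ± 5.85 CPM (SD, n = 6 each), a log2 change of 0.86 per allele lost (SE 0.0543) and 3.29-fold from control to cKO-/-. Within the animals numbered Sample_1120 to Sample_1219 the cKO-/- mean was 47.3 CPM (n = 2), against 24.1 in cKO+/- (n = 3).

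Ostn showed a wider range. Control cerebellum held 0.142 to 0.735 CPM (median 0.332), or 4 to 23 reads per library. cKO+/- libraries held 0.833 to 4.54 CPM (median 2.31) and cKO-/- libraries 10.2 to 25.3 CPM (median 15.6). The 3 groups did not overlap, although cKO-/- libraries differed among themselves by more than those of Dmp1 did. The means of 0.402 ± 0.285, 2.65 ± 1.32 and 15.97 ± 5.89 CPM gave a log2 change of 2.67 per allele (SE 0.173) and 39.7-fold between the outer groups. From summed reads, 2506 in cKO-/- and 70 in controls, the ratio was 38.3 with a 95% interval of 30.2 to 49.3, an exact interval that covers counting error only. In the run Sample_1120 to Sample_1219 the 2 cKO-/- libraries were the lowest of their group, at 10.2 and 10.3 CPM, and still above every cKO+/- library.

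Amelx was near the limit of detection in controls. The 6 control libraries held 0 to 5 reads each and 8 in all, 3 of them none. cKO+/- libraries held 3 to 15 reads, and cKO-/- libraries 65 to 96. In CPM the control range was 0 to 0.160 (median 0.0189), the cKO+/- range 0.109 to 0.466 (median 0.194) and the cKO-/- range 2.43 to 3.90 (median 3.01). The cKO-/- libraries stood clear of all others, while cKO+/- and control ranges overlapped. The fitted log2 change was 3.22 per allele (SE 0.220), and the ratio of summed reads between cKO-/- and control was 64.7 (95% interval 32.6 to 151, counting error only). Amelx lies on chromosome X, at 169176114 to 169187209 of GRCm38, inside an intron of Arhgap6 on the opposite strand, and none of its 967 exonic bases is shared with an Arhgap6 exon. Strand use in counting is not given in the sources used here. Arhgap6 increased in the cerebellum as well, from 3.93 to 12.8 CPM (log2 0.85 per allele, SE 0.0775, adjusted p = 7.44e-07, edgeR). In hippocampus it went from 3.76 to 5.84 CPM (log2 0.39, SE 0.193, adjusted p = 0.26), and Amelx had 1 read in all used hippocampal libraries together. Whether reads from inside Arhgap6 contributed to Amelx was not tested.

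Fbln7 followed Dmp1 closely in size. Control libraries held 5.21 to 7.35 CPM (median 6.21), cKO+/- 7.98 to 10.02 (median 9.34) and cKO-/- 17.9 to 27.2 (median 19.0). No library of one genotype fell into the range of another. The means were 6.27 ± 0.720, 9.28 ± 0.742 and 20.6 ± 3.69 CPM, with a log2 change of 0.86 per allele (SE 0.0652) and 3.29-fold in all. Within the run Sample_1120 to Sample_1219 the cKO-/- mean was 17.9 CPM (n = 2).

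All cKO-/- libraries exceeded all controls for 4 of the 5 members tested, against 2.67% of all genes tested in the cerebellum. All cKO+/- libraries exceeded all controls for 3 of 5 (Dmp1, Ostn and Fbln7), against 0.741% of all genes. Both counts come from the genotype values by which members were chosen, so nothing is read from them. Between the 2 genotypes that both carried NesCre, the ratio of cKO-/- to cKO+/- means was 2.25 for Dmp1, 2.22 for Fbln7, 6.02 for Ostn and 12.1 for Amelx, again as a description, and the libraries of these groups did not overlap for any of the 4.

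**Figure D1:**
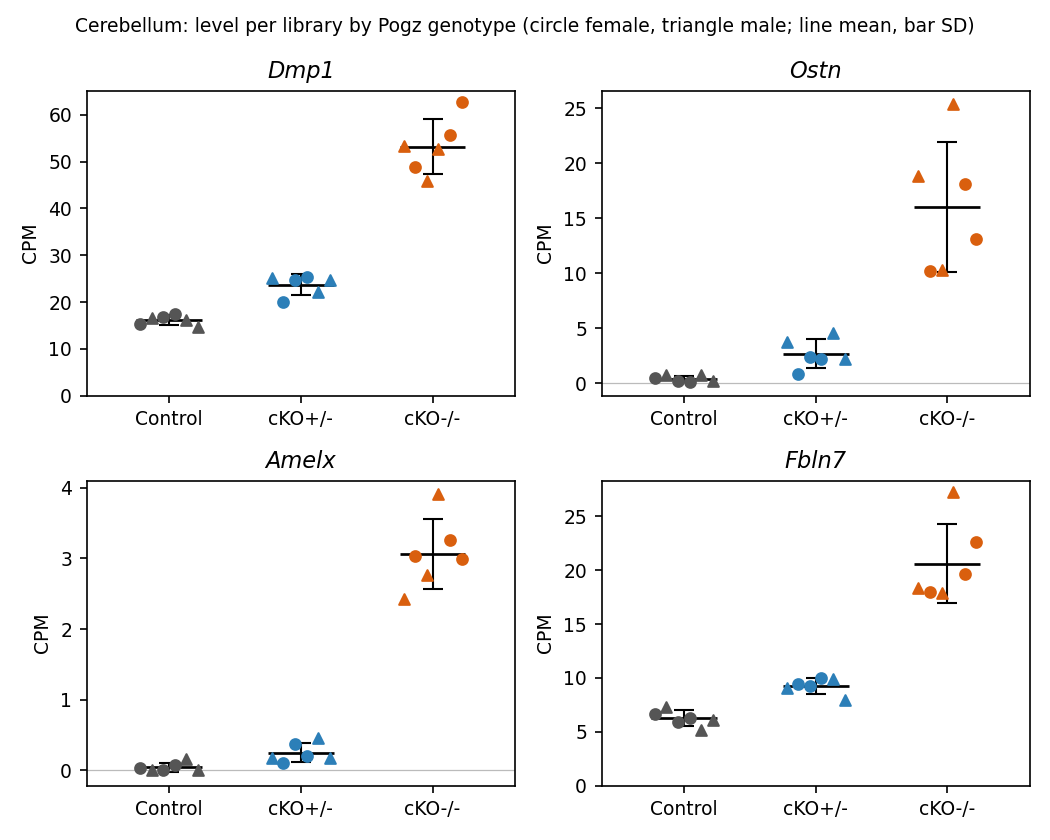
CPM (vertical axes, from 0) of Dmp1, Ostn, Amelx and Fbln7 in each cerebellar library by genotype, with circles for females, triangles for males, a line at the mean and a bar of 1 SD (n = 6). The cKO-/- libraries lie above all others in each panel, from 45.8 CPM for Dmp1 and from 2.43 CPM for Amelx.

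Spp1 behaved differently. Control cerebellum held 12.2 to 22.9 CPM (median 15.6), cKO+/- 11.3 to 76.8 (median 35.5) and cKO-/- 12.1 to 77.1 (median 37.2). The 3 ranges overlapped, and the lowest library of either mutant group lay below every control. The means were 16.5 ± 3.68, 38.7 ± 24.8 and 39.4 ± 22.7 CPM, so that the fitted log2 change of 0.61 per allele (SE 0.212) did not pass the threshold. Spp1 moved with other properties of the libraries. In the run Sample_1120 to Sample_1219 its mean was 21.8 CPM in cKO+/- (n = 3) and 18.1 in cKO-/- (n = 2), whereas the mutant animals outside that run averaged 55.7 (n = 3) and 50.1 (n = 4). A covariate for animals numbered outside the range of the controls turned the Spp1 change to -0.16 per allele. With scores of leptomeningeal, choroid plexus and brainstem markers as covariates the Spp1 change was 0.06. Summed over 10 brainstem markers the controls held 9.24 to 28.6 CPM, cKO+/- 17.1 to 131 and cKO-/- 20.6 to 141, and of the 4 markers tested 1 was called (Tph2, higher). The 3 libraries with the most Spp1 were those of Sample_936, Sample_1433 and Sample_933, at 77.1, 76.8 and 57.0 CPM. Their brainstem sums were 125, 131 and 89.8 CPM, and these 3 also held the most choroid plexus transcripts, 3072, 3200 and 2390 CPM over 9 markers, against 18.7 to 76.8 in the other 15. Microglia, which make Spp1, also moved with it. The same 3 libraries and Sample_1385, the fourth in Spp1 at 48.6 CPM, had the highest sums over 9 microglial markers, 215, 239, 213 and 255 CPM, against 141 to 199 in the other 14. Their leptomeningeal sums were 499, 417, 409 and 505 CPM, within a range over all libraries of 201 to 505. The part of these cells and tissues in the Spp1 values was not tested.

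**Figure D2:**
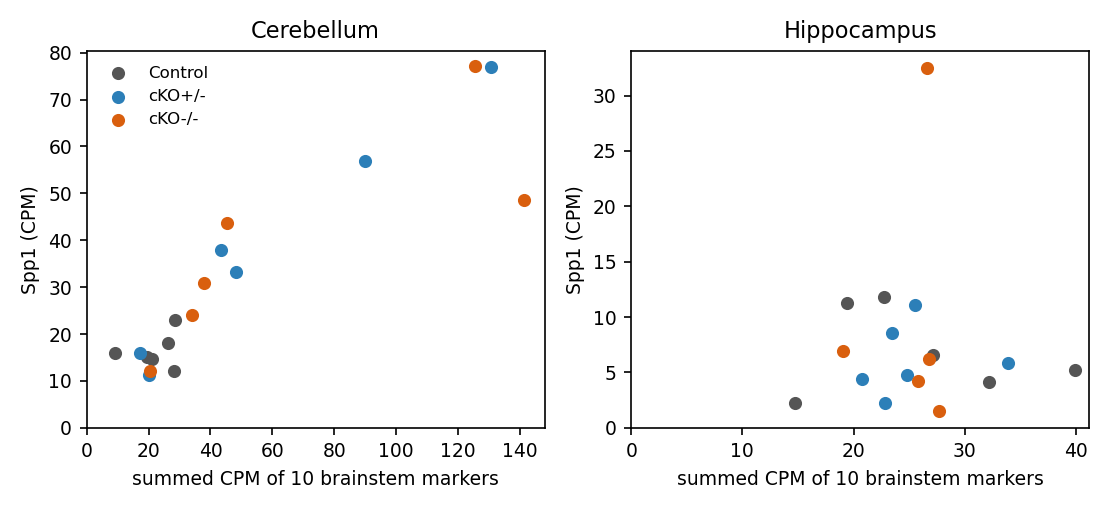
Spp1 in CPM (vertical axes) against the summed CPM of 10 brainstem markers (horizontal axes), 1 point per library, coloured by genotype, with cerebellum left and hippocampus right. Cerebellar libraries with a high marker sum had high Spp1 in both mutant genotypes, while the hippocampal cKO-/- library at 32.5 CPM of Spp1 had a marker sum of 26.6.

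The other members of the chromosome 5 cluster were scarcely detected in the cerebellum and did not pass the filter. Dspp, the dentin sialophosphoprotein, was measured at 0.440 ± 0.147, 0.352 ± 0.120 and 0.456 ± 0.217 CPM in control, cKO+/- and cKO-/- (76, 62 and 75 reads), with overlapping ranges. The ratio of cKO-/- to control was 1.06 (95% interval 0.757 to 1.47, counting error only). Ibsp, bone sialoprotein, had 1, 2 and 4 reads over the 6 libraries of each genotype, and all 4 reads of cKO-/- came from 1 library. Mepe, the matrix extracellular phosphoglycoprotein of osteocytes, had 0 reads in control and cKO+/- and 2 reads in 1 cKO-/- library. A count of 0 in controls allows up to 0.0176 CPM (3 reads over the group).

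The genes beside Dmp1 on chromosome 5 were not called with it. On GRCm38 the cluster runs along the forward strand from Dspp (104170712 to 104180127) through Dmp1 (104202617 to 104214102), Ibsp (104299287 to 104311472) and Mepe (104325329 to 104338611) to Spp1 (104435111 to 104441053). Dspp, whose ranges overlapped between genotypes, ends 22490 bases before Dmp1. Of 13 further genes within 500 kb, 9 were tested in each tissue and 0 were called in either by edgeR. Their median change per allele was 0.01 in cerebellum (range -0.15 to 0.10) and -0.04 in hippocampus (-0.17 to 0.13). Next to the ends of the cluster stood Sparcl1, beside Dspp, and Pkd2, beside Spp1. Sparcl1, a matricellular gene, was at 0.07 (SE 0.0538, adjusted p = 0.414, edgeR) in cerebellum and 0.03 (SE 0.0303, adjusted p = 0.548) in hippocampus. Pkd2, a calcium channel of cilia, was at -0.05 (SE 0.0354, adjusted p = 0.351, edgeR) and -0.06 (SE 0.0274, adjusted p = 0.207). The plot of the region shows Dmp1, and Spp1 with a wide bar, above neighbours near 0.

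**Figure D3:**
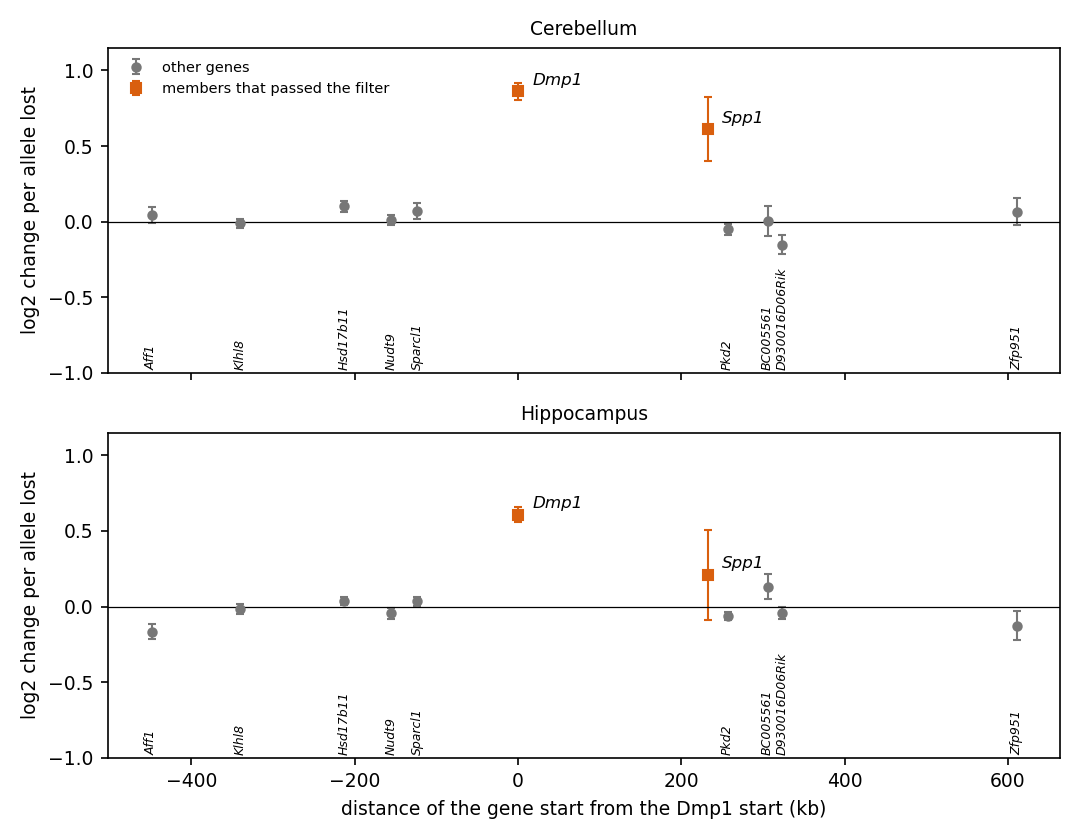
Log2 change per Pogz allele lost (vertical axes, bars 1 SE) for tested genes against the distance of their start from that of Dmp1 in kb (horizontal axis), cerebellum above and hippocampus below. Dmp1 stands at 0.86 and 0.61, Spp1 at 0.61 and 0.21 with wide bars, and the other 9 genes lie between -0.17 and 0.13.

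Around the other members the picture was mixed. Uts2b, urotensin 2B, ends 2113 bases from Ostn on chromosome 16 (Ostn at 27307641 to 27351209) and was measured at 0.209 CPM in control and 1.23 CPM in cKO-/- cerebellum, below the filter and untested. Gmnc, a regulator of ciliated cells on the other side, went from 0.256 to 0.986 CPM and was likewise untested, while Ccdc50 was at -0.01 per allele (SE 0.0378, adjusted p = 0.85, edgeR). Beside Amelx, Hccs, a holocytochrome c synthase, increased slightly in the cerebellum (log2 0.10, SE 0.0232, adjusted p = 0.00986, edgeR). Fbln7 (chromosome 2, 128863932 to 128897034) had 17 genes within 500 kb, of which 11 were tested in the cerebellum and only Mertk, a receptor of phagocytic cells, was called. Mertk fell by 0.33 per allele in cerebellum (SE 0.0547, adjusted p = 0.000736) and by 0.29 in hippocampus (SE 0.0703, adjusted p = 0.0235, both edgeR). Tmem87b and Zc3h8, the direct neighbours of Fbln7, were at -0.07 and -0.02 per allele in cerebellum, and neither was called.

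In the hippocampus Dmp1 was the single member called. Of the 8 members 3 passed the filter (Dmp1, Spp1 and Fbln7) and 1 was called higher with alleles lost, where 2.09% of 14339 genes were called higher and 2.35% lower. Control libraries held 6.10 to 6.82 CPM of Dmp1 (median 6.33), cKO+/- 6.86 to 9.62 (median 8.50) and cKO-/- 13.9 to 16.8 (median 14.7). The groups did not overlap, though the lowest cKO+/- library lay just above the highest control. Their means of 6.44 ± 0.294 (n = 6), 8.34 ± 0.933 (n = 6) and 15.02 ± 1.07 CPM (n = 5) gave a log2 change of 0.61 per allele (SE 0.0492). The left-out library of Sample_1160 held 12.2 CPM, below the other cKO-/- libraries and above all cKO+/- libraries. Among the 3 members tested, 1 had all cKO-/- libraries above all controls and the same 1 had all cKO+/- libraries above them, against 1.53% and 0.314% of all genes, which is again a description of the contrast used in the choice. Within the run Sample_1120 to Sample_1219 the 1 used cKO-/- library held 13.9 CPM and the 3 cKO+/- libraries 9.02 on average.

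Fbln7 and Spp1 did not separate the genotypes in hippocampus. Fbln7 was 1.77 ± 0.760, 1.61 ± 0.249 and 1.87 ± 1.03 CPM in control, cKO+/- and cKO-/- (log2 0.06 per allele, SE 0.154). Its highest library, cKO-/- Sample_1385 at 3.67 CPM, also had the most leptomeningeal and choroid plexus transcripts (404 and 5129 CPM over 9 markers each), and its lowest, control Sample_1155 at 0.494 CPM, the fewest leptomeningeal ones (60.9 CPM). The part of these tissues in Fbln7 was not tested. Spp1 was 6.87 ± 3.88, 6.17 ± 3.18 and 10.3 ± 12.6 CPM (log2 0.21, SE 0.297), and the last mean rested on 1 library at 32.5 CPM. Whether the effects of Pogz on Fbln7 and Spp1 differed between tissues was not tested.

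The members with the largest cerebellar increases were almost absent from hippocampus at every genotype. Ostn had 6, 2 and 2 reads over all used libraries of control, cKO+/- and cKO-/-, and never more than 2 per library. Amelx had 0, 1 and 0 reads. For Amelx the 0 in cKO-/- allows up to 0.0215 CPM (3 reads over the group), so that the 3.03 CPM over cKO-/- cerebellum was at least 141-fold higher. For Ostn the ratio between the tissues in cKO-/- rested on 2 hippocampal reads, at 1096 with a 95% counting interval of 303 to 9052. Ibsp went the other way and was seen in every hippocampal library, at 0.190 ± 0.0741, 0.312 ± 0.118 and 0.127 ± 0.0838 CPM by genotype (43, 63 and 18 reads), with overlapping ranges. Dspp had 46, 38 and 12 reads, and the ratio of cKO-/- to control was 0.438 (95% interval 0.211 to 0.841, counting error only), while the ranges over libraries overlapped. Mepe had 0, 2 and 1 reads.

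**Figure D4:**
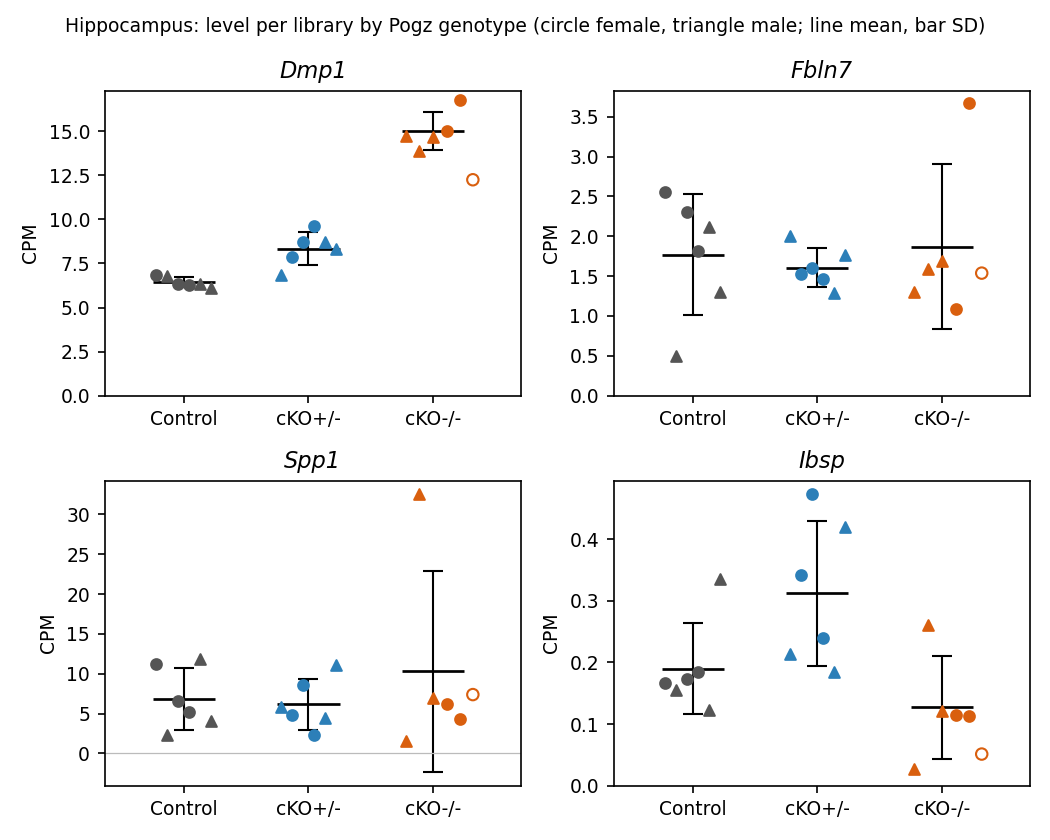
CPM (vertical axes) of Dmp1, Fbln7, Spp1 and Ibsp in each hippocampal library by genotype, with circles for females, triangles for males, a line at the mean and a bar of 1 SD (n = 6, 6 and 5), and an open circle for the left-out library Sample_1160. Dmp1 alone separates the genotypes, with cKO-/- libraries from 13.9 CPM.

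The tissues were compared in the control animals, a contrast between tissues and not between genotypes, although these libraries were also one arm of the genotype contrast used in the choice. All 3 members tested were higher in cerebellum and 0 were higher in hippocampus. Over the 14224 genes tested, 36.7% were called higher in cerebellum and 35.2% higher in hippocampus, so a call here was common. Dmp1 differed by -1.24 (log2 hippocampus minus cerebellum, SE 0.0682, adjusted p = 1.65e-09), Fbln7 by -1.77 (SE 0.259, adjusted p = 3.33e-05) and Spp1 by -1.16 (SE 0.33, adjusted p = 0.00628, edgeR's quasi-likelihood test). Each control animal gave both tissues, and this fit did not include the animal. With the animal as a block, the same test gave adjusted p = 3.66e-07, 0.000522 and 0.00941 for Dmp1, Fbln7 and Spp1. In Dmp1 all 6 control cerebella (14.7 to 17.5 CPM) lay above all 6 hippocampi (6.10 to 6.82). Without Sample_1129, whose hippocampal library held cerebellar transcripts, Fbln7 differed by -1.86 and Spp1 by -1.36. When the filter was dropped, 7 of 7 members with reads in controls were called, in both directions, where 28.6% of 20616 genes were called higher in cerebellum and 29.9% higher in hippocampus. Ibsp was then higher in hippocampus (log2 4.39, SE 0.695, adjusted p = 4.87e-05), on 43 reads against 1, a ratio of 31.3 with a 95% counting interval of 5.32 to 1264. Ostn (log2 -3.68, SE 0.627, adjusted p = 0.000101) and Dspp (log2 -1.09, SE 0.321, adjusted p = 0.00807) were higher in cerebellum, on 70 against 6 and 76 against 46 reads. Amelx had 8 reads in control cerebellum and 0 in control hippocampus (adjusted p = 0.0481 in the same edgeR test). The fit without the filter also left out the animal and was not repeated with it as a block.

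Per kb of exon, the order in control cerebellum was Spp1 (9.94 ± 2.22 CPM per kb), Dmp1 (5.86 ± 0.372), Fbln7 (2.16 ± 0.247), Ostn (0.317 ± 0.224), Dspp (0.0994 ± 0.0332), Amelx (0.0463 ± 0.0654), Ibsp (0.00293) and Mepe (0). The first 4 did not overlap between neighbours in this order. Ostn overlapped Dspp, Dspp overlapped Amelx, and Amelx overlapped Ibsp. In cKO-/- cerebellum the order was Spp1 (23.8 ± 13.7), Dmp1 (19.3 ± 2.12), Ostn (12.6 ± 4.65), Fbln7 (7.09 ± 1.27), Amelx (3.17 ± 0.517) and Dspp (0.103 ± 0.0489), with overlap among the first 4 neighbours and none from Fbln7 to Dspp. Ostn thus came between Dmp1 and Fbln7 in level per kb. In control hippocampus Spp1 (4.14 ± 2.34) overlapped Dmp1 (2.33 ± 0.106), followed by Fbln7 (0.608 ± 0.261), Ibsp (0.0970 ± 0.0379), Dspp (0.0444 ± 0.0216) and Ostn (0.0192 ± 0.0165).

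**Figure D5:**
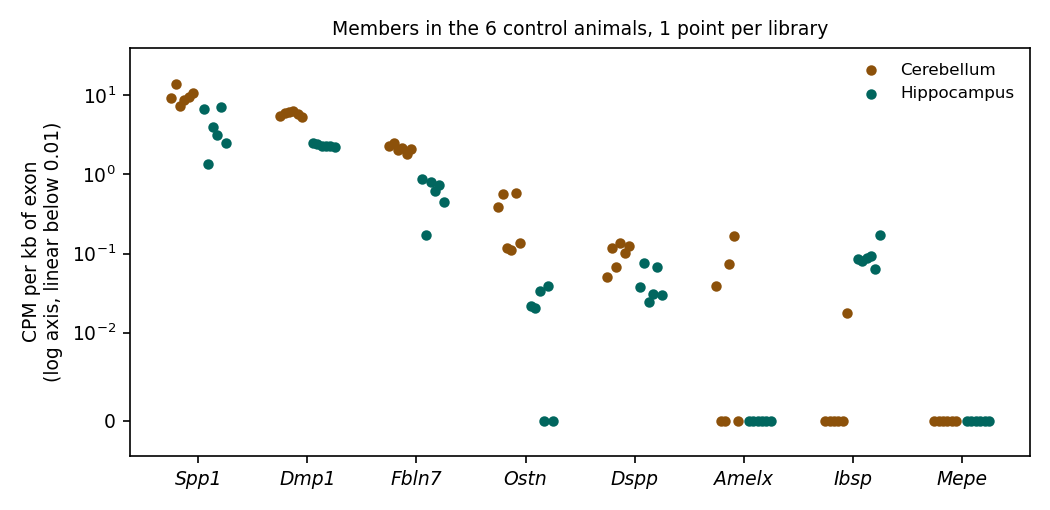
CPM per kb of exon (vertical axis, logarithmic above 0.01 and linear below) of the 8 members in the 6 control animals, 1 point per library, brown for cerebellum and green for hippocampus. Ibsp is the 1 member whose hippocampal points (0.0970 on average) lie above the cerebellar ones.

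The step from control to cKO+/- was smaller than that from cKO+/- to cKO-/- for Dmp1 and Fbln7. This was fitted as the departure of the cKO+/- mean from the midpoint of the outer groups on the log2 scale. The members were chosen on levels in these same genotype groups, so the departures and their p-values are a description. Dmp1 in cerebellum lay 0.31 below the midpoint (log2 -0.31, SE 0.0689, unadjusted p = 0.000292, adjusted p = 0.341 in edgeR's quasi-likelihood test across all genes), and Fbln7 departed by -0.29 (SE 0.0976, adjusted p = 1, edgeR). Amelx departed by -0.61 (SE 0.487), Ostn by 0.02 (SE 0.237) and Spp1 by 0.57 (SE 0.316), each with an adjusted p of 1 in edgeR. In hippocampus Dmp1 departed by -0.24 (SE 0.0649, unadjusted p = 0.00157, adjusted p = 0.484 by edgeR). Thus 0 of 5 and 0 of 3 members passed (2 and 1 at an unadjusted p under 0.05), where 0.0214% and 0% of all genes did. DESeq2 called 1 of 5 in cerebellum, Dmp1 (adjusted p = 0.0248), and 0 of 3 in hippocampus.

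No member that passed the filter was called between the sexes or for a sex difference in the Pogz effect. edgeR called 0 of 5 members between males and females in cerebellum, where 0.0499% of genes were called, and 0 of 3 in hippocampus, where 0.907% were. At an unadjusted p under 0.05 there were 2 and 0 members, and DESeq2 called 0 in both tissues. Ostn was 0.71 higher in males on the log2 scale (SE 0.268, unadjusted p = 0.0156, adjusted p = 1 by edgeR) and Spp1 0.68 higher (SE 0.323, unadjusted p = 0.0474, adjusted p = 1 by edgeR) in cerebellum. For the interaction of sex with alleles lost, 0 members and 0% of all genes were called in cerebellum and likewise 0 and 0% in hippocampus. None of these 5 and 3 members had an unadjusted p under 0.05 for the interaction, and DESeq2 called 0. With all 8 members fitted without the filter, Ibsp in cerebellum (7 reads in all) had an unadjusted p of 0.0363 and Dspp in hippocampus one of 0.0173, with adjusted p = 0.967 and 0.857 by edgeR.

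Over the 18 cerebellar libraries, the log2 CPM of Dmp1, Amelx, Ostn and Fbln7 correlated with each other at Pearson's r of 0.927 to 0.967, and that of Spp1 with theirs at 0.368 to 0.514. These libraries share the genotype groups, and the values describe that pattern alone. The genes most like Dmp1 by r were Col4a6, a basement membrane collagen (0.968, 4.02 to 9.51 CPM from control to cKO-/-), Fbln7 (0.967) and Gm13544 (0.965, 0 to 12.3 CPM). Those most like Amelx were Dmp1 (0.965), Col4a6 (0.955) and Serpinb2, a protease inhibitor (0.946, 0.445 to 15.1 CPM). Ostn was nearest to Akr1c13 (0.957, 0.0810 to 2.91 CPM), Amelx (0.939) and Rps4l (0.939, 14.2 to 36.2 CPM), and Fbln7 to Dmp1 (0.967), Kank4os (0.966) and Col4a6 (0.951). Spp1 had a separate set, Meis2 (0.962, 0.923 to 12.8 CPM), Rassf4 (0.959) and Nefl, the light neurofilament chain (0.954, 156 to 250 CPM).

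Other genes of the mineralised-tissue programme were examined by lists, each read against a median change over all tested genes of 0.0009 per allele in cerebellum and 0.0017 in hippocampus. Of all tested genes 7.11% were called higher and 6.55% lower in cerebellum, and 2.09% and 2.35% in hippocampus. The lists were chosen with earlier results of these data known, so their calls and p-values describe this contrast and are not independent tests. Of 18 bone matrix and mineral genes, 14 were tested in cerebellum, 5 were called higher and 0 lower, with a median of 0.16 per allele. The 5 were Col1a1 and Col1a2, the chains of type I collagen, Bgn, Postn and Tnfrsf11b. Col1a1 rose from 13.7 ± 2.13 to 28.2 ± 8.81 CPM (log2 0.52, SE 0.0909, adjusted p = 0.00126, edgeR), and Tnfrsf11b, osteoprotegerin, from 9.43 ± 2.68 to 15.2 ± 2.77 CPM (log2 0.34, SE 0.0935, adjusted p = 0.0225, edgeR). Markers of the leptomeninges, which express type I collagen, moved with this list. Of 9 such markers 4 were called higher and 0 lower (Igf2, Dcn, Slc6a13 and Col1a1, the last a gene of both lists), and their summed level was 201 to 275 CPM in control, 257 to 417 in cKO+/- and 261 to 505 in cKO-/- cerebellum. Their part in the list was not tested. In hippocampus 2 of 13 were called higher, Sparc (log2 0.14, adjusted p = 0.0231) and Postn (log2 0.58, adjusted p = 0.0247, edgeR), with a median of 0.14. There 1 of the 9 leptomeningeal markers was called, Lum (higher), their median was 0.38, and their sum was 60.9 to 313 CPM in control, 121 to 236 in cKO+/- and 119 to 404 in cKO-/-. Their part in the hippocampal values was not tested either.

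Several genes that define bone-forming cells were scarcely detected in cerebellum. Bglap, osteocalcin, averaged 0.0290 CPM in control and 0.0423 in cKO-/- cerebellum, Bglap2 0 and 0.0113, and Ifitm5 0.00533 and 0.0329. Of 5 osteoblast markers 2 were tested and 0 called by edgeR in either tissue. Only Sp7 in cerebellum had an unadjusted p under 0.05 (edgeR), at 0.715 CPM in control and 1.16 in cKO-/-. The summed level of the 5 markers was 6.43 to 8.30 CPM in control and 7.02 to 9.30 in cKO-/- cerebellum, nearly all of it Phospho1. Among 13 bone and tooth regulators, 9 were tested in cerebellum, and those called higher included Msx1 (1.17 to 3.04 CPM, log2 0.69, SE 0.208, adjusted p = 0.035, edgeR), with 0 of 11 called in hippocampus. Runx2, the master regulator of osteoblasts, was below the filter in cerebellum at 0.584 CPM in control and 0.724 in cKO-/-. In hippocampus Runx2 was well above the filter, at 20.0, 17.3 and 16.4 CPM in control, cKO+/- and cKO-/-, and was not called (adjusted p = 0.215, edgeR).

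Among osteocyte and phosphate genes, Phex and Pdpn were called higher in cerebellum. Phex, the endopeptidase that acts with Dmp1 in bone, rose from 5.604 ± 0.526 in control through 8.74 ± 1.64 to 18.1 ± 3.56 CPM in cKO-/- cerebellum (log2 0.85 per allele, SE 0.0733, adjusted p = 3.31e-07, edgeR). In hippocampus it was below the filter, at 0.404, 0.279 and 0.348 CPM. Of the 7 genes of this list tested in cerebellum, 2 were called higher and 0 lower. Pdpn, which leptomeningeal cells also express, was at 0.25 (log2, SE 0.0628, adjusted p = 0.0155, edgeR). Fgf23 was at -0.20 (SE 0.127, adjusted p = 0.306, edgeR) and Sost, an osteocyte Wnt inhibitor, at 0.19 (SE 0.119, adjusted p = 0.29, edgeR). The median of the list was 0.09, and 0 of 5 were called in hippocampus.

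No other enamel gene was called with Amelx. Ambn, Amtn and Odam had 0 reads in every library of both tissues, Enam averaged 0 CPM in control and cKO-/- cerebellum, and Mmp20, the enamel protease, was 0.385 ± 0.200 and 0.351 ± 0.136 CPM. The 1 gene tested, Fam83h, was at -0.01 per allele in cerebellum (adjusted p = 0.964, edgeR). Of 14 receptors and proteases of the matrix proteins tested, 3 were called higher (Cd44, Itgb1 and Mmp2) and 2 lower (Itgb5 and Bmp1) in cerebellum, with a median of 0.09. Cd44 and the integrin subunits Itgb1 and Itgb5 all belong to receptors of osteopontin, and they were at 0.18, 0.13 and -0.13 per allele. Bmp1, the protease that cleaves DMP1 and DSPP precursors, fell by 0.33 per allele in cerebellum (SE 0.103, adjusted p = 0.0411) and by 0.23 in hippocampus (SE 0.0497, adjusted p = 0.0125, both edgeR), where it was the 1 gene of 14 called.

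For osteocrin, the natriuretic peptide system was followed. Of 5 genes tested in cerebellum 1 was called higher and 1 lower, with a median of 0.10. Corin, the protease that activates atrial natriuretic peptide, rose from 14.1 ± 2.45 to 25.5 ± 5.06 CPM (log2 0.43, SE 0.0722, adjusted p = 0.000946, edgeR), and Npr1, its guanylyl cyclase receptor, fell by 0.15 per allele (SE 0.0459, adjusted p = 0.0416, edgeR). Npr3, the clearance receptor to which osteocrin binds, was measured at 1.98 ± 0.569 and 3.92 ± 3.84 CPM and was not called (log2 0.42, SE 0.258, adjusted p = 0.279, edgeR). In hippocampus 0 of 4 were called. Among 6 other fibulins tested in cerebellum 1 was called, Hmcn1 (5.47 ± 2.04 to 11.0 ± 3.24 CPM, log2 0.50, SE 0.115, adjusted p = 0.00921, edgeR), and 0 in hippocampus, with medians of 0.22 and 0.08. Fbln5 and Efemp1 were at 0.33 (adjusted p = 0.0519) and 0.24 (adjusted p = 0.0835, edgeR) in cerebellum.

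Markers of other cells were read beside the members, where 7.11% of all tested genes were called higher in cerebellum and 2.09% in hippocampus. Of 9 microglial markers 4 were called higher in cerebellum (summed 143 to 152 CPM in control, 148 to 239 in cKO+/- and 141 to 255 in cKO-/-) and 0 in hippocampus. Of 7 activated microglial markers 4 were tested in cerebellum and 1, Lpl, was called higher. Markers of blood and marrow summed to 2.41 to 12.9 CPM in control and 4.16 to 17.9 in cKO-/- cerebellum, and 0 of the 1 tested was called. Of 9 choroid plexus markers 5 were tested in cerebellum and 7 in hippocampus, and 0 were called in either by edgeR (2 and 0 at an unadjusted p under 0.05). Their sums were highest in Sample_933, Sample_936 and Sample_1433 in cerebellum, and in Sample_1129, Sample_1170, Sample_1219 and Sample_1385 in hippocampus. A further fit took scores of leptomeningeal, choroid plexus and brainstem markers as covariates, and no microglial or blood score. In it Dmp1, Ostn, Amelx and Fbln7 were at 0.79, 2.53, 3.25 and 0.81 per allele in cerebellum, and Dmp1 at 0.69 in hippocampus. The part of these cells and tissues in the members' values was not tested.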

How the data were processed

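Poly(A) RNA was pulled down from the RNA of cerebellum and hippocampus and sequenced as TruSeq libraries. The authors aligned reads with STAR (250a) and deposited whole-number counts per gene and sample without normalization. Their notes name mm9, while the coordinates in the count tables match GRCm38. The annotation release and strand use are not given in the sources used here, and genes that share reads with another are uncertain. The quasi-likelihood F-test of edgeR 4.0.16 (R 4.3.3), in its earlier form, was run on genes that exceeded 1 CPM in 6 or more libraries, with TMM scaling over 18 libraries per tissue, sex and the number of alleles lost, and Benjamini-Hochberg adjustment over all genes tested. Tissues were compared in the 6 controls. Both tissues came from the same animals, so numbers pair them, and same-animal deviations correlated at a median of 0.224 (0.021 to 0.373, 5 of 6 above 0.1) against -0.0792 between animals. DESeq2 1.42.0 was used for alternative fits, and limma 3.58.1 was installed but ran no fit of its own. The edgeR fits of the allele effect in each tissue and of the tissue difference in controls were tested on simulated counts. The sex, interaction, midpoint and DESeq2 fits were not. Intervals on summed reads were exact and conditional, at 95%.

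The members and gene lists were chosen with earlier results of these data known. Members' values were all printed, and other genes were named where a list, the 500 kb around a member or the 3 highest correlations with it held them. Alternatives were DESeq2, other size factors, no filter, the bias-adjusted fit, no sex term, genotype as a factor, marker scores, animal-number covariates and subsets, all 18 hippocampal libraries, and each library left out. Separate animals are replicates within a genotype. Depth limits members under the filter, where a library often held fewer than 10 reads. A gene of the regulator list is not reported here.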

Additional observations from a re-analysis of the deposited data

Results flagged for a closer look

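Over the members that passed the filter in either tissue, 2 of 24 groups of 1 genotype had 1 library far from the rest, both in hippocampus, and chance flags about 1 in 20 groups. Spp1 in cKO-/- was 32.5 CPM in Sample_1219, with a group median of 6.25 CPM. That library held 1149 CPM of choroid plexus markers, while Sample_1385 held 5129 CPM of them with Spp1 at 4.27 CPM and Sample_936 held 28.4 CPM with Spp1 at 1.52 CPM. Fbln7 in cKO-/- was 3.67 CPM in Sample_1385, with a group median of 1.59 CPM, and that library had the highest leptomeningeal sum, 404 CPM. The part of these tissues in either value was not tested.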

How the results depend on the processing

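The cerebellar changes of Dmp1, Ostn, Amelx and Fbln7 kept their direction under all 29 alternatives. They were at 0.71 to 0.89, 2.37 to 2.77, 2.94 to 3.52 and 0.73 to 0.92 per allele. The fit of cKO-/- against control, which counts both alleles, is left out of these ranges. The members were chosen by this contrast in these same libraries, so the refits describe it and are not further evidence. The lowest values of Dmp1 and Fbln7 came from only animals numbered within the range of the controls, where cKO-/- cerebellum is the 1 library of Sample_1160, assumed to vary like the others. Dmp1 in hippocampus passed under 28 of 29. Only animals numbered within the range of the controls, which leaves no cKO-/- library there, gave 0.51 with 0 members and 0 genes called. Spp1 in cerebellum turned to -0.16 with a covariate for animals outside the range of the controls and to -0.15 with only animals within it. It passed with DESeq2 (0.61), with cKO-/- against control (1.24) and without Sample_1160, Sample_1219 or Sample_1433 (0.71, 0.70 and 0.62). Spp1 in hippocampus turned to -0.18 with that covariate, -1.04 within that range, -0.26 with marker scores and -0.27 without Sample_1219, the range over left-out libraries being -0.27 to 0.35. Fbln7 in hippocampus turned to -0.058, -0.32 and -0.17 under the same 3, to -0.046 and -0.061 with a covariate for or only Sample_1120 to Sample_1219 (added after seeing the data), and to -0.03 and -0.11 without Sample_1155 and Sample_1385 (range -0.11 to 0.15).

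Counts over all genes varied more. In cerebellum 1916 genes were called by genotype, 134 and 308 with the covariates for numbers outside the controls' range and outside Sample_1120 to Sample_1219, 62 and 277 with only animals inside them, 459 with marker scores and 928 to 2572 with 1 library left out. In hippocampus 636 were called, 1056 with DESeq2, 246 with all 18 libraries, 30 and 68 with the 2 covariates, 0 and 27 inside the ranges, 91 with marker scores and 286 to 937 with 1 library left out. The cause was not tested. Sex calls went from 7 to 17 in cerebellum and from 130 to 621 in hippocampus with DESeq2, to 6 with all 18 hippocampal libraries and to 30 to 212 with 1 left out. Midpoint calls went from 3 to 12 and from 0 to 12 with DESeq2 (1 member, Dmp1), to 1 in hippocampus without the filter and to 0 to 1 with 1 library left out. Without the filter 7 members differed between tissues. The animal as a replicate block gave -1.24 for Dmp1, -1.30 for Spp1 and -1.81 for Fbln7 and changed no call. Leaving out each control gave -1.27 to -1.21, -1.47 to -0.86 and -1.93 to -1.49.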
